A study of Drosophila melanogaster with 12 samples.

Results

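This report describes the RNA polymerase II peaks that sit at annotated gene starts and were found in each of the 4 chromatin immunoprecipitation (ChIP-seq) libraries of AGO2-depleted and mock-treated Kc167 cells. A region counted as shared when peaks joined by overlaps of 1 bp or more held a stretch covered in all 4 libraries, which gave 4641 regions. Of these, 4265 lay at promoters, meaning that the shared stretch was within 1500 bp of 1 of 21948 annotated starts. Widths and edges were compared at the 3381 promoter regions with exactly 1 peak in each library, which belonged to 3158 genes and are called shared promoter peaks here. The other 884 promoter regions held several peaks in at least 1 library and are described separately.

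The whole series held 39409 peaks in 6 libraries, from mock cells, AGO2-depleted cells and cells depleted of LaminB, with 2 replicates in each group. Kc167 is a female Drosophila melanogaster line of embryonic, hemocyte-like origin. AGO2 KD cells were nucleofected with 100 pmol of an siRNA against AGO2 and LaminB KD cells with 2 ug of a double-stranded RNA against Lamin B, and cells were collected 3 days later. Mock cells went through nucleofection with no RNA, so the mock group has no non-targeting siRNA, and an effect of AGO2 loss and an effect of siRNA delivery cannot be told apart. The labels do not say that replicates came from separate cultures, so the p-values measure the spread between these libraries only.

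The antibody recognises the largest Pol II subunit when serine 5 of its C-terminal repeats is phosphorylated (Pol II S5). This phosphate is placed by the Cdk7 kinase of TFIIH around initiation, and it is therefore densest just downstream of gene starts, where polymerase in flies often pauses before the kinase P-TEFb releases it into the gene. The downstream edge of a promoter peak thus records how far detectable Pol II S5 signal ran into the gene. The upstream edge records how far signal ran before the start. It can include signal from the opposite direction or from a neighbouring start, and the part of these was not tested. AGO2 is the Argonaute protein that carries small interfering RNAs in flies. The study compared AGO2 KD with mock to ask whether AGO2 limits elongating polymerase. From read counts, it reported gains of Pol II S5 at part of the up-regulated genes and losses at part of the down-regulated genes. Peak width is a different measure, and that result was not tested here.

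For mock replicates 1 and 2, MACS2 had returned 6435 and 7162 peaks, and for AGO2 KD replicates 1 and 2 it had returned 5532 and 6631. Read depth is unknown from peak lists, so a stand-in was derived for every peak from its fold and p-value. This implied background is the local pileup at which a Poisson test would have produced the deposited pair of values. Its median per library was 5.39 and 7.81 for mock, 3.21 and 5.16 for AGO2 KD, and 14.0 and 3.30 for LaminB KD. Both AGO2 KD libraries were thus below both mock libraries in this measure, and AGO2 KD replicate 2 was close to mock replicate 1. The hemocyte identity of the cells was checked at 10 marker genes, and 7 of them, among them srp, Hml and Pxn, had a start under a peak in all 4 libraries, while NimC1, eater and He had none. Among markers of other cell types, the starts of 0 of 3 fat body genes and 0 of 2 germline genes were covered in any library. Of 3 muscle genes, Mhc and bt were covered in no library and Mlc2 in some of the libraries. Of 2 neuronal genes, Syt1 was covered in no library and elav in all 4.

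The sequences around the starts of 4 genes at the centre of the results show that promoters of different kinds were involved. Each runs from 60 bases before to 39 bases after the annotated start at 0, in the direction of the gene, in the dm6 assembly. Capitals mark an initiator (TCAGT) from -10 to 10, or a DNA replication-related element (TATCGATA, which reads the same on both strands). At upd2, a further initiator match begins at the last capital T, and only the first of these overlapping matches is in capitals. The genes upd2 and Socs36E had wider peaks in both AGO2 KD libraries than in both mock libraries, lama likewise, and ArgRS had the largest gap among narrower peaks.
upd2, chrX:18243245-18243344, minus strand: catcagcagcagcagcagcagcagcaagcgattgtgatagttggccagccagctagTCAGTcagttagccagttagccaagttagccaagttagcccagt
lama, chr3L:5355307-5355406, minus strand: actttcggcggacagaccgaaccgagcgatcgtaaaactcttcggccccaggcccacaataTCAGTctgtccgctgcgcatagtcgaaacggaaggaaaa
Socs36E, chr2L:18152378-18152477, minus strand: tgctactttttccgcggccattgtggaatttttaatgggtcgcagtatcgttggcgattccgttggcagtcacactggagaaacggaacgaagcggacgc
ArgRS, chrX:15844106-15844205, minus strand: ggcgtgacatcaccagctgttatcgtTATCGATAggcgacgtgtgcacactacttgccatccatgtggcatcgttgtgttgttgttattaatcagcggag

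Shared promoter peaks were on balance narrower in AGO2 KD than in mock. Mock replicates 1 and 2 had median widths of 886 and 1096 bp, compared with 586 and 861 bp for AGO2 KD replicates 1 and 2. Both AGO2 KD medians lay below both mock medians, but AGO2 KD replicate 2 was only 25 bp below mock replicate 1. The group means were 723.5 ± 194 bp (SD, n = 2) in AGO2 KD and 991 ± 148 bp (SD, n = 2) in mock, a difference of -267.5 bp (exact two-sided permutation test, p = 0.333). That is the smallest p that 2 libraries against 2 can give, from 6 labelings, so no comparison of this kind could reach 0.05. With replicates 1 of both groups set against replicates 2, the difference was -242.5 bp, nearly as large, and with mock replicate 1 and AGO2 KD replicate 2 set against the other pair it was 32.5 bp.

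The upstream edge lay closer to the start in AGO2 KD. Its median position was -187 and -236 bp in mock, and -138 and -162 bp in AGO2 KD, with no overlap between the groups. The mean difference was 61.5 bp (exact permutation p = 0.333), against 36.5 bp when replicates 1 were set against replicates 2.

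The downstream edge did not separate the groups in the main comparison. Its median was 578 and 725 bp past the start in mock, and 410 and 580 bp in AGO2 KD, so that AGO2 KD replicate 2 and mock replicate 1 differed by 2 bp. The mean difference of -156.5 bp (exact permutation p = 0.667) was slightly smaller than the -158.5 bp between replicates 1 and replicates 2. Within the same replicate number, AGO2 KD minus mock was -168 bp for replicates 1 and -145 bp for replicates 2. The labels do not say that a replicate number marks a shared batch. Under some alternatives the medians did separate, for instance by -168.25 bp with an equal number of peaks per library and by -175.5 bp with a −log10 q-value of 2 or more (exact permutation p = 0.333 for both). Over individual peaks, the median shift between the group means was 45.0 bp inward at the upstream edge (quartiles 21.0 and 102.5 bp) and -68.5 bp at the downstream edge (quartiles -201.5 and -27.0 bp).

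**Figure D1:**
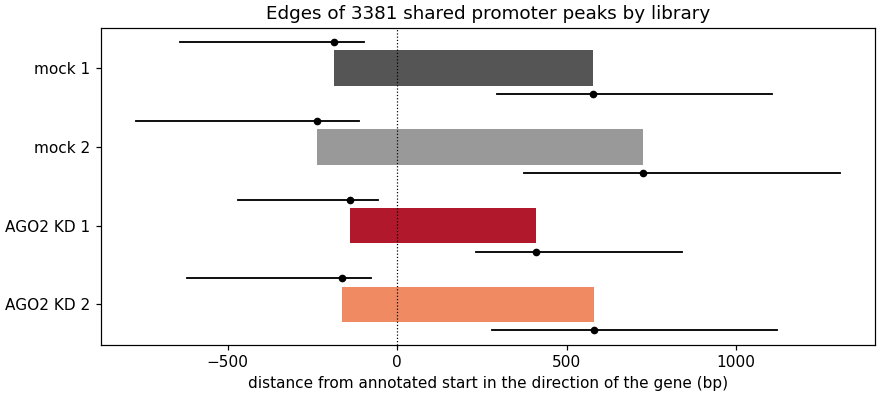
Median upstream and downstream edges of the 3381 shared promoter peaks in each library, in bp from the annotated start, with the bar joining both medians, points for the medians and black lines for the quartiles. The bars of mock 1 and AGO2 KD 2 end at 578 and 580 bp, and the bar of AGO2 KD 1 is the shortest of the 4.

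Fewer peaks covered the start or the end of the gene in AGO2 KD. The annotated start was under the peak in 90.7% and 92.3% of cases in mock, compared with 84.1% and 87.0% in AGO2 KD (exact permutation p = 0.333). Over the 3166 peaks at genes of 1 kb or more, the peak reached the gene end in 5.87% and 6.63% of cases in mock, compared with 4.55% and 5.40% in AGO2 KD, a mean difference of -1.28 percentage points (exact permutation p = 0.333). The median fold enrichment over background was 4.08 and 4.13 in mock, and 4.33 and 3.96 in AGO2 KD, so the AGO2 KD values lay on either side of the mock values.

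Counted peak by peak, 1959 of the 3381 shared promoter peaks (57.9%) were narrower in both AGO2 KD libraries than in both mock libraries, and 25 (0.739%) were wider. Over all 3689 shared regions with 1 peak per library, at promoters or not, these shares were 57.6% and 0.813%. The shared promoter peaks make up most of these regions, so both sets of shares are bound to be close. The 308 such regions away from starts gave 165 narrower (53.6%) and 5 wider (1.62%). Their upstream edge was inward at 148 (48.1%) and outward at 8, and their downstream edge inward at 152 (49.4%) and outward at 6. A difference from promoters was not tested. The upstream edge was further inward in both AGO2 KD libraries at 1925 shared promoter peaks (56.9%) and further outward at 31, beside 56.2% and 1.06% of all shared regions. The downstream edge was further inward at 1685 (49.8%) and further outward at 49, beside 49.8% and 1.49%. Both edges were inward at 1022 peaks, the upstream edge alone at 882, the downstream edge alone at 657, and 747 peaks had neither edge separated.

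The same count was large when the replicates, not the treatments, were set against each other. Replicates 1 of both groups were narrower than both replicates 2 at 1137 shared promoter peaks and wider at 20, whereas the arrangement of mock replicate 1 and AGO2 KD replicate 2 against the others gave 103 narrower and 125 wider. Leaving out a library loosens the rule to 2 libraries against 1, so each count can then be no lower than before. The count of narrower peaks was 2958 without mock replicate 1, 2041 without mock replicate 2, 2035 without AGO2 KD replicate 1 and 3015 without AGO2 KD replicate 2. The count of wider peaks in the same order was 39, 271, 322 and 37.

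Between the 2 libraries closest in implied background, mock replicate 1 and AGO2 KD replicate 2, the difference in width was smaller than between the groups. AGO2 KD replicate 2 was narrower at 2105 shared promoter peaks (62.3%) and wider at 1263 (37.4%), with a median difference of -29.0 bp (quartiles -107.0 and 46.0 bp). Between AGO2 KD replicate 1 and mock replicate 2, the pair furthest apart in implied background, 98.1% of peaks were narrower in AGO2 KD and the median difference was -282 bp. Replicates of the same treatment differed by a median of -89.0 bp in AGO2 KD and -98.0 bp in mock, both as replicate 1 minus replicate 2. Both of the AGO2 KD and mock pairs above cross replicate numbers, so implied background and replicate number cannot be told apart in them. Within the same replicate number, the difference of median widths, AGO2 KD minus mock, was -300 bp for replicates 1 and -235 bp for replicates 2.

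The LaminB KD libraries place this in a wider range. At the 2802 shared promoter peaks with 1 peak in each LaminB KD library too, median widths were 925.5 and 1127 bp in mock, 614.5 and 884.5 bp in AGO2 KD, but 1600.5 and 455.5 bp in LaminB KD replicates 1 and 2. LaminB KD replicate 2 was narrower than both mock libraries at 2685 of these peaks (95.8%), and LaminB KD replicate 1 was wider than both at 2294 (81.9%). The spread between the LaminB KD replicates was therefore larger than any difference between AGO2 KD and mock. Implied background and width had nearly the same order over the 6 libraries. The exception was AGO2 KD replicate 1 and LaminB KD replicate 2, which were close in implied background, at 3.21 and 3.30, while LaminB KD replicate 2 was the narrower at 2220 of the 2802 peaks. The part of read depth or immunoprecipitation quality in the narrower AGO2 KD peaks was not tested.

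**Figure D2:**
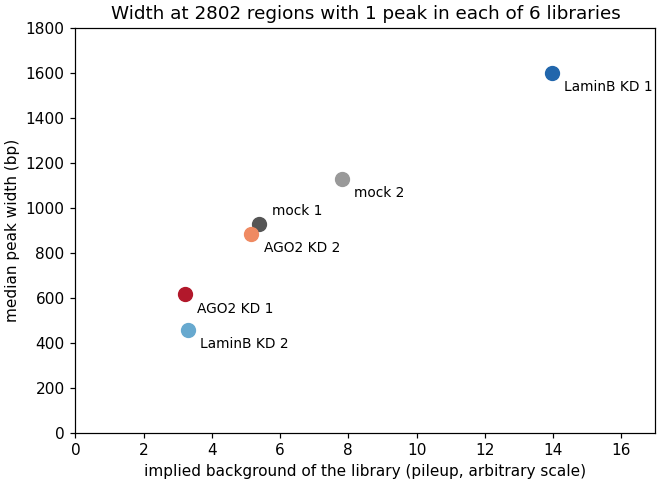
Median peak width (bp) against the implied background of each of the 6 libraries, over the 2802 regions with 1 peak in every library. AGO2 KD 2 (884.5 bp) lies beside mock 1 (925.5 bp), and the LaminB KD replicates are the widest and the narrowest.

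Promoter regions with several peaks in a library broke into more pieces in AGO2 KD. Over all 4265 shared promoter regions, the mean number of peaks per region was 1.11 and 1.03 in mock, and 1.17 and 1.15 in AGO2 KD (difference 0.089, exact permutation p = 0.333). The groups did not overlap, although the gap from mock replicate 1 to AGO2 KD replicate 2 was 0.037 peaks. Of the 4265 regions, 3787 were 1 peak in both mock libraries, and 122 of these were split in both AGO2 KD libraries. In the opposite case, 3508 regions were 1 peak in both AGO2 KD libraries, and 6 of these were split in both mock libraries. The length under peaks in the 884 regions with several peaks had a median of 2974 and 3627.5 bp in mock, and 1828.5 and 2852 bp in AGO2 KD. It was lower in both AGO2 KD libraries at 538 of the 884 and higher at 1. For comparison, 2124 of all 3689 shared regions with 1 peak per library (57.6%) were narrower and 30 were wider. A difference between these shares was not tested.

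The largest gaps among the narrower peaks were at genes of several functions. ArgRS, which encodes the arginyl-tRNA synthetase (FBgn0027093, chromosome X, start 15844145), had peaks of 2319 and 2364 bp in mock, and 261 and 573 bp in AGO2 KD. Its mock peaks reached 1823 and 1833 bp past the start of a gene of 2377 bp, whereas the AGO2 KD peaks ended at 224 and 473 bp. The promoter of ArgRS, shown above with its DNA replication-related element, was under the peak in all 4 libraries. Its gap of 1746 bp was the largest among the narrower peaks, of which the median gap was 68.0 bp.

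At cwo (FBgn0259938, chromosome 3R, start 10388258), a transcriptional repressor of the circadian clock, the mock peaks were 2881 and 2915 bp wide and the AGO2 KD peaks 1267 and 1272 bp. Replicates nearly coincided, and the gap was mostly at the downstream edge, which lay at 2779 and 2810 bp in mock, and at 1185 and 1184 bp in AGO2 KD. Cpsf5 (FBgn0288470, chromosome 3L, start 9411038), a factor of mRNA 3′ end formation, showed the same form. Its peak was 2802 and 2819 bp wide in mock and 1244 and 1348 bp in AGO2 KD, with downstream edges at 2435 and 2383 bp against 887 and 977 bp. Rrp46 (FBgn0037815, chromosome 3R, start 10413301), a subunit of the RNA exosome, had 3264 and 3624 bp in mock, and 1727 and 1665 bp in AGO2 KD, and its mock peaks ended 2506 and 2712 bp past the start of a gene of 942 bp.

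Other large gaps were at the upstream edge or at both edges. The tRNA-modifying enzyme Tgt (FBgn0031321, chromosome 2L, start 1184065) had its upstream edge at -2061 and -3230 bp in mock, and at -347 and -479 bp in AGO2 KD, while its downstream edges overlapped. The uncharacterised CG9393 had peaks of 2631 and 2847 bp in mock, and 868 and 943 bp in AGO2 KD, with a gap at both edges. Tom70, an import receptor of the mitochondrial outer membrane, had 4986 and 5392 bp in mock, and 1956 and 3504 bp in AGO2 KD, and its gap was larger at the downstream edge (-968 bp) than at the upstream edge (514 bp). CG6791 had 5091 and 4290 bp in mock, and 1082 and 2835 bp in AGO2 KD, so in both of these genes the AGO2 KD replicates differed from each other by over 1500 bp. Edges of such wide peaks can lie in a neighbouring gene, and the part of each gene in the signal was not tested. The upstream edge was furthest inward at Tgt, CG6791, mRpL16 and CG5885, with gaps of 1582, 1220, 1207 and 1117 bp. LaminB KD replicate 2 was narrower than both AGO2 KD libraries at ArgRS (165 bp), Cpsf5 (766 bp), Rrp46 (1070 bp) and Tgt (1538 bp). The same held at CG9393 (863 bp), Tom70 (1093 bp) and CG6791 (313 bp). LaminB KD replicate 1 was wider than both mock libraries at each of these genes. At cwo, LaminB KD replicate 1 had 2734 bp and replicate 2 had no single peak.

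**Figure D3:**
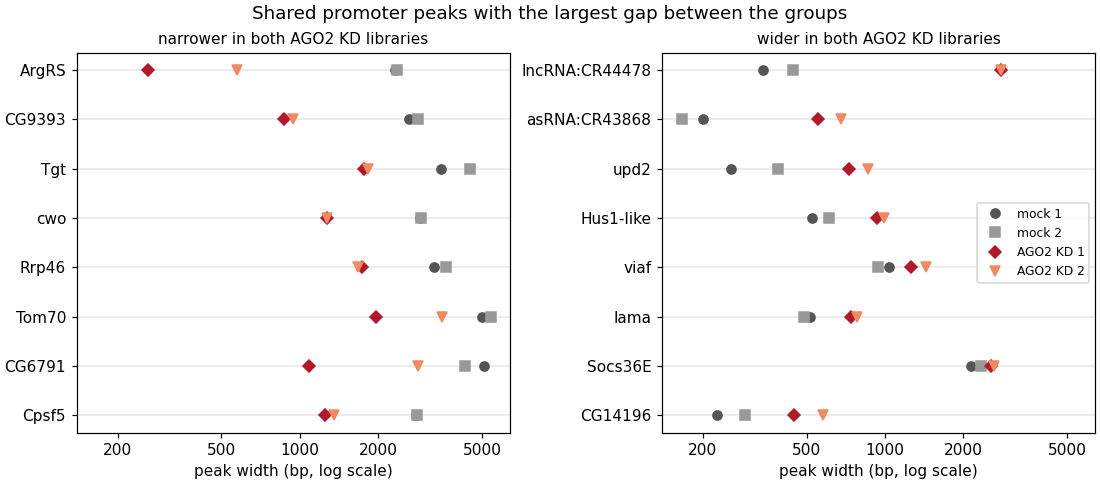
Peak width (bp, log axis) in each of the 4 libraries for the 8 shared promoter peaks with the largest gap among those narrower in both AGO2 KD libraries (left) and among those wider (right). The mock replicates of cwo and Cpsf5 almost coincide, and the widest gap on the right is at lncRNA:CR44478, from 443 to 2777 bp.

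The 25 peaks that were wider in both AGO2 KD libraries were few and mostly separated by little. Their median gap was 86.0 bp, 12 had a gap of 100 bp or more and 10 a gap under 50 bp. They belonged to 20 protein-coding and 5 noncoding genes, and 17 were outward at the downstream edge. LaminB KD replicate 1 was also wider than both mock libraries at 24 of the 25, and LaminB KD replicate 2 was so at 1 of the 15 where it had 1 peak. For comparison, over the 2802 shared promoter peaks with 1 peak in each LaminB KD library, replicate 1 was wider than both mock libraries at 81.9%. Replicate 2 was narrower than both at 95.8% of them, and so was rarely wider there. The 25 include regions outside that set, and a difference between these shares was not tested.

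Of these wider peaks, 3 lay within Socs36E (FBgn0041184, chromosome 2L, 18138675 to 18152417, minus strand), the feedback inhibitor that JAK/STAT signalling induces in flies. The study picked this gene partly from these libraries, so it is not independent evidence. The peak at its start was 2147 and 2343 bp wide in mock, and 2559 and 2617 bp in AGO2 KD, and its downstream edge lay at 1860 and 2063 bp against 2349 and 2403 bp. The peak nearest to lncRNA:CR44478, a noncoding gene inside Socs36E, was 341 and 443 bp in mock, and 2777 and 2793 bp in AGO2 KD, the largest gap of the 25. This peak no longer counted as wider with an equal number of peaks per library, with a −log10 q-value of 2 or more, or with the upper 50% of peaks by score. The last peak, assigned by distance to the start of the neighbouring gene kel, lay inside Socs36E and was 4170 and 4244 bp in mock, and 4359 and 4622 bp in AGO2 KD. Peaks covered 46.4% and 49.1% of Socs36E in mock, 70.1% and 72.8% of it in AGO2 KD, and 74.4% and 28.2% of it in LaminB KD. Both AGO2 KD libraries and LaminB KD replicate 1 stood above both mock libraries, and LaminB KD replicate 2 stood below them. The implied background of the libraries is given above, and its part in the cover of Socs36E was not tested.

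**Figure D4:**
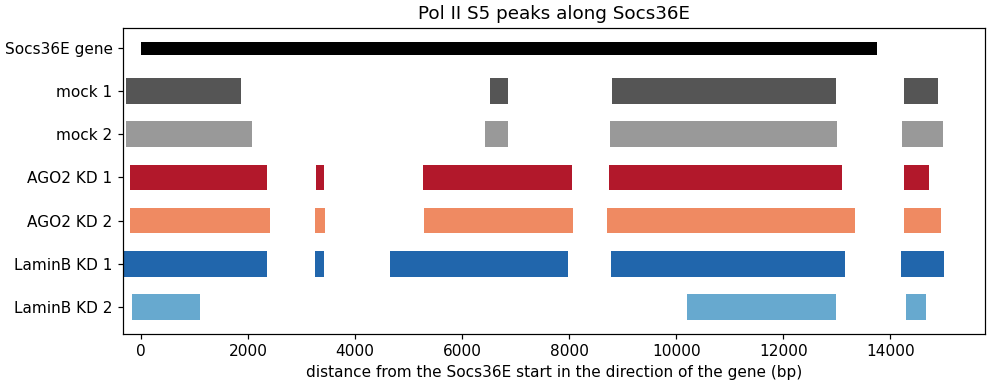
Peaks of the 6 libraries along Socs36E, in bp from its annotated start in the direction of the gene, with the gene as a black bar. The peak that begins at 5265 and 5280 bp in AGO2 KD 1 and 2 is wider than the mock peaks at 6517 and 6417 bp, and the LaminB KD replicates differ from each other.

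Stat92E, the JAK/STAT transcription factor of flies, binds the letters TTCNNNGAA, which read the same on both strands. This search was chosen after the peaks had been seen. The 3 regions in Socs36E held 14 matches in 10120 bp, or 1.38 per kb, whereas the regions of all shared promoter peaks held 1311 matches in 5107587 bp, or 0.257 per kb. Within 500 bp on either side of the start, a match was present at 25.4% of shared promoter peaks and 27.2% of all annotated starts. The region of upd2 held 0 matches in 861 bp. The following matches lie in the peak at lncRNA:CR44478, outside both mock peaks and inside both AGO2 KD peaks, and near the start of Socs36E, inside the peaks of all 4 libraries, with capitals on the match and the plus strand shown. A match is a description of sequence and not a site of binding.
lncRNA:CR44478 region, chr2L:18144745-18144774: attcaagttgcTTCCCGGAAatgcgacccg
Socs36E region, chr2L:18151738-18151767: agaaaatgcgtTTCTGGGAAtttcgtatcg

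Another wider peak was at upd2 (FBgn0030904, chromosome X, start 18243284), which encodes a secreted ligand of the JAK/STAT pathway. Its peak was 257 and 388 bp wide in mock, and 729 and 861 bp in AGO2 KD. The added width was upstream of the initiator shown above, where the edge lay at -202 and -263 bp in mock, and at -640 and -702 bp in AGO2 KD. The downstream edges overlapped between the groups. The related ligand upd3 had 518 and 544 bp in mock, and 537 and 554 bp in AGO2 KD, so its groups overlapped. With the upper 50% of peaks by score, upd2 no longer counted as wider.

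On the JAK/STAT list as a whole, 10 of 14 genes had a shared promoter peak, 5 of them narrower and 2 wider, beside 57.6% and 0.813% of all shared regions. The wider peaks were Socs36E and upd2. The narrower ones included Su(var)2-10, the PIAS regulator of Stat92E, at 3497 and 3365 bp in mock, and 1820 and 2299 bp in AGO2 KD. Another was et, a receptor that dampens the pathway, at 683 and 1103 bp in mock, and 321 and 357 bp in AGO2 KD. Ptp61F, a phosphatase of the pathway, Stat92E and the target gene chinmo were narrower by gaps of 49, 29 and 1 bp. The list thus held values in both directions.

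Further wider peaks lay at genes of other kinds. Hus1-like (FBgn0026417, chromosome 3R, start 4812096), a member of the DNA damage checkpoint clamp, had 524 and 607 bp in mock, and 934 and 993 bp in AGO2 KD, with the downstream edge at 398 and 466 bp against 815 and 876 bp. The peak of lama (FBgn0016031, chromosome 3L, start 5355346) was 517 and 488 bp in mock, and 738 and 782 bp in AGO2 KD, also at the downstream side of its initiator. The peak at viaf was 1037 and 939 bp in mock, and 1261 and 1442 bp in AGO2 KD, that of CG14196 was 227 and 291 bp against 447 and 576 bp, and that of asRNA:CR43868 was 201 and 166 bp against 552 and 678 bp. Under the 3 settings in which lncRNA:CR44478 lost its call, asRNA:CR43868 did too, and with the upper 50% of peaks by score viaf, CG14196 and the peak assigned to kel also lost it. For the antisense gene asRNA:CR43868, ChIP-seq cannot tell which strand was transcribed. The upstream edge was furthest outward at lncRNA:CR44478, upd2, CG5262 and Atg14, with gaps of 1182, 377, 122 and 81 bp.

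Apart from Socs36E, the genes the study discusses were unremarkable in width. The study shows Traf4 for AGO2 on chromatin and cv-2 for AGO2 on chromatin and nascent RNA. It shows betaTub60D and vri for the pausing factor NELF-E and the kinase CDK9. None of these genes is its example for Pol II S5, so the widths below do not test what it reports for them. The AGO2 promoter itself had peaks of 593 and 573 bp in mock, and 487 and 586 bp in AGO2 KD. An siRNA acts on mRNA, so this peak does not check the knockdown. Traf4 had 635 and 730 bp in mock, and 529 and 711 bp in AGO2 KD. At cv-2 the widths were 512 and 707 bp in mock, and 527 and 711 bp in AGO2 KD, and at betaTub60D they were 579 and 692 bp against 570 and 735 bp. The groups overlapped in width at each of these genes. The genes vri and Lam had a shared region but no shared promoter peak, as Lam held several peaks in some libraries and no region with 1 peak per library was assigned to vri.

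Each of the 15 gene lists had a negative median log2 ratio of AGO2 KD to mock width, and their shares of narrower peaks are read against the 57.6% of all shared regions. Lists of translation genes spanned much of the range. Of 12 shared promoter peaks at aminoacyl-tRNA synthetase genes, which charge tRNAs, 9 were narrower and 0 wider, with a median log2 ratio of -0.36. Of 19 at mitochondrial ribosomal protein genes, 13 were narrower, with a median of -0.32, and mRpL16 had the largest gap, at 2890 and 2962 bp in mock, and 1534 and 1457 bp in AGO2 KD. Of 45 peaks at cytoplasmic ribosomal protein genes, 27 were narrower with a median of -0.13, and RpL34b had the largest gap, at 3230 and 3842 bp in mock, and 1603 and 2612 bp in AGO2 KD. Over all 3381 peaks the median log2 ratio was -0.29 (quartiles -0.55 and -0.12).

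Genes of energy supply and protein turnover were next. Nuclear oxidative phosphorylation genes had 20 of 27 peaks narrower and 0 wider (median log2 ratio -0.21), with the ATP synthase subunit ATPsynF at 2401 and 3409 bp in mock, and 1511 and 1737 bp in AGO2 KD. Vacuolar ATPase genes had 5 of 8 narrower and a median of -0.13, with Vha36-1 at 1875 and 2285 bp against 1760 and 1740 bp. Proteasome genes had 9 of 15 narrower and a median of -0.07. Their largest gap was at Prosalpha6, a subunit of the proteasome core, at 2254 and 2250 bp in mock, and 1688 and 1722 bp in AGO2 KD.

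Cell cycle genes had 14 of 22 peaks narrower and 0 wider (median log2 ratio -0.28). Mcm7, a subunit of the replicative helicase, had 2133 and 2554 bp in mock, and 803 and 1059 bp in AGO2 KD, and its downstream edge lay at 2143 and 2527 bp against 869 and 1115 bp. Elongation and pausing factor genes had 5 of 10 narrower and a median of -0.20. Ctr9, a subunit of the Paf1 elongation complex, had 3015 and 3075 bp in mock, and 1922 and 1901 bp in AGO2 KD, and the gap was at its upstream edge, at -1844 and -1827 bp against -729 and -721 bp. Nelf-A, a subunit of the pausing factor NELF, had 2108 and 2161 bp in mock, and 1366 and 2476 bp in AGO2 KD, with overlapping groups.

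Inducible and developmental genes had shares of narrower peaks below that of all shared regions, a difference that was not tested. Heat shock protein genes had 4 of 10 narrower and 0 wider (median log2 ratio -0.11). Hsc70-3, the chaperone of the endoplasmic reticulum, had 6130 and 6116 bp in mock, and 5463 and 5842 bp in AGO2 KD. At Hsp70Bb, a classic gene of paused polymerase, the widths were 243 and 261 bp in mock, and 241 and 261 bp in AGO2 KD, but the near-identical Hsp70 copies share reads and this value is uncertain. Ecdysone response genes had 10 of 21 narrower and a median of -0.26, with the transcription factor Sox14 at 1039 and 1286 bp in mock, and 689 and 709 bp in AGO2 KD. Signalling and developmental regulators had 22 of 54 narrower and 1 wider (median -0.20). The repressor gene ttk had 3558 and 3500 bp in mock, and 2040 and 2539 bp in AGO2 KD, and the wider peak was at crc, by a gap of 7 bp.

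Smaller lists gave the following values. Genes of actins, tubulins and their partners had 2 of 7 peaks narrower (median log2 ratio -0.05), with alphaTub84D at 1762 and 1743 bp in mock, and 753 and 1357 bp in AGO2 KD, a value that is uncertain because alpha tubulin copies are near identical. Act5C, the main cytoplasmic actin gene, had 5813 and 5832 bp in mock, and 5693 and 5754 bp in AGO2 KD. Hemocyte and matrix genes had 4 of 7 narrower (median -0.26), with the clotting protein gene Hml at 750 and 646 bp in mock, and 292 and 442 bp in AGO2 KD. Of 3 small RNA pathway peaks, 1 was narrower, at the microRNA-processing enzyme Dcr-1, with 1038 and 1288 bp in mock, and 429 and 837 bp in AGO2 KD. Dcr-2, which makes small interfering RNAs, had 729 and 2213 bp in mock, and 536 and 1938 bp in AGO2 KD, and its replicates differed more than its groups.

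**Figure D5:**
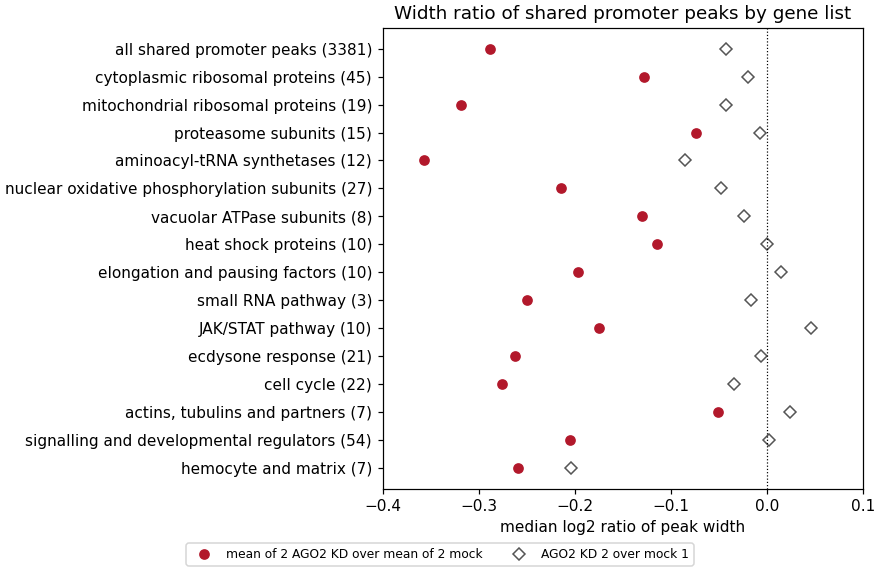
Median log2 ratio of peak width for each gene list (number of peaks in parentheses), as the mean of 2 AGO2 KD over the mean of 2 mock libraries (filled) and as AGO2 KD 2 over mock 1 (open). The filled points run from -0.36 to -0.05, and the open points lie nearer to 0 in every list.

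Between AGO2 KD replicate 2 and mock replicate 1 alone, the median log2 ratio was -0.04 over all shared promoter peaks. It was 0.05 for the JAK/STAT list, 0.02 for actins, tubulins and partners, -0.09 for aminoacyl-tRNA synthetases and -0.20 for hemocyte and matrix genes. The order of the lists was not tested, and lists of wider peaks differ from lists of narrower peaks in how much a fixed shift of an edge changes the ratio. With the shared promoter peaks put into 4 equal bins by mean width, the median log2 ratio was -0.34 in the narrowest bin and -0.18 in the widest, although the median upstream shift was 31.5 bp in the former and 81.0 bp in the latter.

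The share of narrower peaks was 57.9% over all shared promoter peaks. It is given below by promoter layout, enrichment, chromosome and gene type, and no difference between these classes was tested. Of 2097 peaks with no opposite start within 1 kb, 60.5% were narrower, and of 1284 with one, 53.8% were narrower. By fold enrichment, 53.4% of peaks in the lowest of 4 bins and 64.6% in the highest were narrower. By chromosome, the share was 64.0% on 2L, 60.1% on 2R, 58.5% on 3L, 55.3% on 3R and 53.0% on X, and 8 of 22 peaks on chromosome 4 were narrower. At 12 peaks of spliceosomal and other small nuclear RNA genes, 10 were narrower, with median widths of 662 and 735.5 bp in mock, and 565 and 595 bp in AGO2 KD.

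Core promoter letters were read from the dm6 assembly at the start of each shared promoter peak. The initiator TCAGT, within 10 bases of the start on the strand of the gene, was present at 518 of 3381 peaks (15.3%) and at 12.1% of all annotated starts. Peaks with this initiator were short, with median widths of 514.5 and 631.5 bp in mock, and 406 and 475 bp in AGO2 KD, and 335 of them (64.7%) were narrower and 6 wider. Peaks without it were 977 and 1202 bp in mock, and 649 and 945 bp in AGO2 KD, and 56.7% were narrower. The difference between both AGO2 KD medians and both mock medians was thus present in either class.

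The DNA replication-related element TATCGATA, between -150 and 50 bases, was present at 417 shared promoter peaks (12.3%) and at 6.15% of all starts. These peaks were wide, at 1204 and 1473 bp in mock, and 824 and 1170 bp in AGO2 KD. Of them, 59.0% were narrower, beside 57.8% of the peaks without this element. A TATA box, taken as TATAAA between -45 and -15 bases on the strand of the gene, was found at 115 shared promoter peaks (3.40%) and at 7.26% of all starts. Of these 115, 61.7% were narrower and 0 were wider, beside 57.8% and 0.765% of the peaks without a TATA box. Differences between peaks with and without the initiator, the replication-related element or the TATA box were not tested. Among the 25 wider peaks, 6 had the initiator, 2 the replication-related element and 0 the TATA box.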

How the data were processed

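Pol II S5 ChIP-seq peak lists of 6 immunoprecipitated Kc167 libraries were used, and groups came from the labels. The 6 input samples have no peak list of their own here. The authors trimmed reads with cutadapt, aligned them to dm6 with Bowtie2, filtered by mapping quality, removed duplicates with Picard 2.11.0 and called broad peaks per replicate with MACS2 against the paired input. The deposited score is 10 times the −log10 q-value, truncated, as checked for at least 99.98% of lines per library. The deposited fold is a ratio of pileup to local background, and the deposited −log10 p-value and −log10 q-value are averages over the peak. Read depth is unknown from these lists. A deeper library can give wider peaks from the same chromatin, and the part of depth in these widths was not tested. The authors tested read counts, and peak lists hold none, so that test was not run.

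Gene starts came from Ensembl BDGP6.54, at protein-coding, snRNA and noncoding genes of at least 200 bp, on the same assembly as dm6. No peak ended beyond its chromosome. The start nearest to the middle of the shared bases gave edge positions, and coordinates count from 1. Narrower, wider, inward and outward mean that both AGO2 KD libraries lay on 1 side of both mock libraries, and the gap is the distance between the nearest libraries of the groups. The exact permutation tests of per-library values were two-sided (scipy 1.17.1, pandas 2.3.3). The procedure was tested on simulated peaks. Named genes are the 8 peaks with the largest width gap in each direction, the 4 with the largest gap of each edge in each direction, genes named by the study, and the member with the largest gap in each direction from each of 15 gene lists. Other genes were chosen after their values were seen. Members and lists were chosen with earlier results of these data known. Of the marker genes, 1 neuronal and 1 germline symbol were not matched in the annotation.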

Additional observations from a re-analysis of the deposited data

How the results depend on the processing

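The lower median width, the inward upstream edge, the smaller share of peaks at the gene end and the larger number of peaks per region kept their direction under each alternative run, while the downstream edge did not. With only the libraries closest in implied background, mock replicate 1 and AGO2 KD replicate 2, the differences were -25 bp in width, 2 bp in the downstream edge (reversed), 25 bp in the upstream edge, -0.474 percentage points in the share at the gene end and 0.037 peaks per region, with no test. Leaving out each library in turn gave -405 to -130 bp in width, -241.5 to -71.5 bp downstream, 37 to 86 bp upstream, -1.71 to -0.853 percentage points at the gene end, 0.0482 to 0.130 peaks per region and 2035 to 3015 narrower peaks. Without promoters that have an opposite start within 1 kb, 1268 of 2097 peaks were narrower, fewer because fewer peaks were counted. The downstream edge separated the groups (exact permutation p = 0.333) with an equal number of peaks (-168.25 bp), a −log10 q-value of 2 or more (-175.5 bp), the upper 50% of peaks by score (-177 bp), 200 bp shared (-168.75 bp), the start inside all 4 peaks (-152 bp), starts of all genes (-157.5 bp) and the mean (-151 bp). Merging peaks within 300 bp altered no value. The count of wider peaks, whose alternatives were chosen after seeing the data, was 18 with equal numbers of peaks, 7 with the upper 50% of peaks by score, and 37 to 322 with 1 library left out, a looser rule that cannot lower a count. The replicate numbers were not stated to mark a shared batch. Differences between replicates correlated across peaks between the groups (r = 0.303, over peaks that share libraries), and with replicate number as a block the width difference was -267.5 bp (exact sign-flip permutation p = 0.5, the smallest that 2 pairs can give). As each block held both groups equally, it could not change a mean difference. Within replicates 1 and replicates 2, AGO2 KD minus mock was -300 and -235 bp in width, -168 and -145 bp downstream and 49 and 74 bp upstream. It was -1.33 and -1.23 percentage points at the gene end, and 0.0593 and 0.119 peaks per region.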
